A study of Mus musculus with 28 samples.

Results

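A broad SSRP1 peak was defined as a region of the SSRP1 ChIP-seq peak list that spans 1000 bp or more from its listed start to its listed end. Of the 10114 unique SSRP1 peaks, 1298 (12.8%) met this rule, and they held 2.32 Mb, or 37.2% of all bases in the list. The other 8816 peaks are called narrow here. The members were selected on their width, a measured value, so that width and the share of bases are given as descriptions. Listed widths come in steps of 98 bp, and the rule fell between 2 neighbouring steps: 229 peaks of 1078 bp lay just inside it and 217 peaks of 980 bp just outside. The broad peaks were listed under 1203 genes.

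SSRP1 and SUPT16 are the subunits of FACT, a histone chaperone that loosens nucleosomes ahead of a polymerase by taking hold of histones H2A and H2B, and that puts nucleosomes back together behind it. FACT was first described as a factor that lets RNA polymerase II pass through chromatin, and it also acts in DNA replication. In embryonic stem cells, genes of growth and cell division such as those of histones and ribosomal proteins are transcribed at high rates, as are the transcription factor genes that keep the cells undifferentiated.

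The cells were mouse embryonic stem (ES) cells of the E14 line, grown without feeders on gelatin with serum and LIF. For ChIP-seq of unperturbed cells, 2 biological replicates per antibody were pooled by the authors into 1 peak list for SSRP1 and 1 for SUPT16. RNA was measured in 4 control and 4 KD libraries with added spike-in RNA. Control cells carried a scramble vector and KD cells carried shRNA vectors against *Ssrp1*, and both were selected with puromycin (2 µg/ml) for 24 h, starting 48 h after transfection. Chromatin-bound RNA of the same line was counted in 2 libraries. The methods call the replicates of the transcriptome analysis biological, and the labels give no culture for a library, so p-values measure the spread between these libraries.

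The peak lists give positions and assigned genes, with no height and no value per replicate, and the depth behind them is unknown. Reads recovered per RNA library were 4602278 to 6680919 in control and 9433193 to 19856032 in KD. The targeted gene *Ssrp1* had values of 261, 230, 223 and 226 in control and 24.1, 26.4, 24.9 and 28.9 in KD, so that the labels held. *Supt16* RNA had a log2 fold change of 0.66 with no overlap between groups, and was not called because it lay below the threshold of 1. For the protein, the paper reports from mass spectrometry that SUPT16 was depleted together with SSRP1. The 5 ES cell markers examined (*Pou5f1*, *Sox2*, *Nanog*, *Zfp42*, *Esrrb*) were present in all libraries, with summed values of 883 to 956 in control and 2000 to 2060 in KD, and 4 of them were called higher. Of 12 markers of fibroblasts, neural cells, endoderm and trophectoderm, 11 had a value and none was at 0. Their summed values were 120 to 168 in control and 141 to 157 in KD, with 8 called lower (*Col1a1*, *Col1a2*, *Pax6*, *Map2*, *Gata4*, *Gata6*, *Sox17*, *Cdx2*) and 1 (*Tubb3*) higher. *Tubb3* alone held 25.7 to 37.0 of the sums in control and 103 to 114 in KD, so the sums hide the falls of the other markers. The part of these other cells in the changes of expression given further on was not tested.

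The sequences under 5 broad peaks are shown first, as examples of the kinds of region described afterwards. They lie at a histone gene, a ribosomal protein gene and a translation factor gene under 1 of the 10 widest peaks. The others lie at an immediate early gene and in a distal peak near a pluripotency gene. All are RefSeq sequence of GRCm38.p6 (mm10), written 5′ to 3′ on the strand named, and positions are counted from 1. Promoters run from 250 bases before to 30 bases after the annotated gene start. Capitals in the promoters mark matches on either strand, as listed for each, to CCAAT (the core letters of the box bound by NF-Y), TATAAA (bound by TBP), GGGCGG (bound by SP factors) or CCGGAAG (bound by ETS factors). A match is a description of letters and not a site of binding.

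*H2ac11* (listed as *Hist1h2ag*) encodes a core histone H2A. Its promoter at chr13:22042920-22043199 on the minus strand lies inside a peak of 4508 bp at chr13:22040103-22044610, and the capitals mark 5 CCAAT matches.
H2ac11: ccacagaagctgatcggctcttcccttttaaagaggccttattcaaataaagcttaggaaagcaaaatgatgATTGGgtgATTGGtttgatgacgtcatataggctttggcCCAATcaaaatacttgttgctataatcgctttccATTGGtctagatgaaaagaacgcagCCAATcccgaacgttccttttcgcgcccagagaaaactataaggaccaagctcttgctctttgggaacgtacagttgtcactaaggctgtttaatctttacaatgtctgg
*Rps2* encodes a protein of the small ribosomal subunit. Its promoter at chr17:24719813-24720092 on the plus strand lies inside a peak of 4900 bp at chr17:24718835-24723734, and the capitals mark 2 TATAAA, 1 CCGGAAG and 1 GGGCGG match. Of the TATAAA matches, 1 reads on the opposite strand and 1 lies after the gene start.
Rps2: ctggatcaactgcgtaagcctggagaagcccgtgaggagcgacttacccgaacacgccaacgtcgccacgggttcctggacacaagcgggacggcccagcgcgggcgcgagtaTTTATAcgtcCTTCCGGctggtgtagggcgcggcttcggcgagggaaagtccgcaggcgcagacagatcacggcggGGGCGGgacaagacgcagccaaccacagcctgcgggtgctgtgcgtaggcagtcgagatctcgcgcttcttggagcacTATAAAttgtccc
*Eef1a1* encodes the elongation factor that brings aminoacyl-tRNA to the ribosome. Its promoter at chr9:78481695-78481974 on the minus strand lies inside a peak of 9506 bp at chr9:78473011-78482516, and the capitals mark 2 GGGCGG matches, both read on the opposite strand.
Eef1a1: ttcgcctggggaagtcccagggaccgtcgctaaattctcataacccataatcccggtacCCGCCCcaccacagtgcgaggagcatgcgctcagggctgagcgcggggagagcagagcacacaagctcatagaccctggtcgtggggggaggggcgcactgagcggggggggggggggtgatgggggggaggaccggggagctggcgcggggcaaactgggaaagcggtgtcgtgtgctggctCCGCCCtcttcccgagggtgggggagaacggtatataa
*Junb* encodes a subunit of the AP-1 transcription factor. Its promoter at chr8:84978719-84978998 on the minus strand lies inside a peak of 5684 bp at chr8:84975213-84980896, and the capitals mark 1 CCAAT and 1 TATAAA match. The TATAAA match lies among the bases after the annotated gene start and not before it.
Junb: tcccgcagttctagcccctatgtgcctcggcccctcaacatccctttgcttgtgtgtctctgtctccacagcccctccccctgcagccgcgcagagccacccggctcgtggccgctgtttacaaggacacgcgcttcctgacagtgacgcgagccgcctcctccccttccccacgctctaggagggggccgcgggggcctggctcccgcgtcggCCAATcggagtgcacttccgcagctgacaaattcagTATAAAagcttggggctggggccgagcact
The distal peak listed for *Zfp42*, which encodes the ES cell marker REX1, spans 8036 bp at chr8:43286993-43295028. The 300 bases at chr8:43288040-43288339 on the plus strand hold its single TCAAGGTCA match, the letters bound by estrogen-related receptors such as ESRRB, in capitals.
Zfp42 distal: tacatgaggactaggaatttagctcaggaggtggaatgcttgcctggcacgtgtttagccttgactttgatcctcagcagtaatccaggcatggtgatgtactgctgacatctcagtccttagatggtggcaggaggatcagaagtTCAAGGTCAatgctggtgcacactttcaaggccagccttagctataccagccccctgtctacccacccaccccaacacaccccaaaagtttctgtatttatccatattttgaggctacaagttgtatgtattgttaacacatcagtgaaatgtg

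Another broad peak covered the miR-290 cluster, a group of microRNAs that is abundant in mouse ES cells and promotes their proliferation. The peak spans 5880 bp at chr7:3217635-3223514, and 17 mature miRNAs with a RefSeq entry lie inside it, from *Mir290a* to *Mir295*. The 3 miRNAs that share the seed AAGUGCU (bases 2 to 8, in capitals) are printed, with the 3 that share CUCAAAC, since they are the largest seed groups of the cluster.
mmu-miR-291a-3p: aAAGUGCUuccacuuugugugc
mmu-miR-294-3p: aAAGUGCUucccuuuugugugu
mmu-miR-295-3p: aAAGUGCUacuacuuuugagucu
mmu-miR-290a-5p: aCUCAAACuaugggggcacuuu
mmu-miR-292a-5p: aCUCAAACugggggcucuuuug
mmu-miR-293-5p: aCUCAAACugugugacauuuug
The peak touched 3 SUPT16 peaks that together lay under 2590 of its bases. The precursor *Mir290a* was counted at 3.95, 2.75, 0.718 and 2.74 in control and 7.17, 5.51, 7.25 and 5.51 in KD, and all KD libraries lay above all control libraries. Its log2 fold change was 1.31 (SE 0.275, adjusted p = 1.05e-04 in limma). These are reads on the precursor in total RNA and not mature miRNA.

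The first question was how far broad SSRP1 peaks coincide with peaks of the other subunit. Of the 1298 broad peaks, 611 (47.1%, 95% Wilson interval 44.4 to 49.8%) overlapped a SUPT16 peak by at least 1 bp, against 1027 of the 8816 narrow peaks (11.6%, interval 11 to 12.3%). A wide region meets another list more easily, so the share of bases was set beside it. SUPT16 peaks lay under 27.8% of the bases of broad peaks and 8.32% of the bases of narrow peaks. Intervals cover counting error only.

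Both shares rose with width at every step. Among peaks of 1078 to 1470 bp (738 peaks), 36.3% touched a SUPT16 peak and 17.3% of bases lay under one. At 1568 to 1960 bp (286 peaks) the values were 50.7% and 22.6%. At 2058 to 2940 bp (171 peaks) they were 67.3% and 33.7%. Of the 103 peaks of 3038 bp or more, 80.6% (interval 71.9 to 87.1%) touched a SUPT16 peak and 46.9% of bases lay under one. No break was seen at the selection limit, as 34.1% of the peaks of 980 bp and 34.9% of those of 1078 bp touched a SUPT16 peak.

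**Figure D1:**
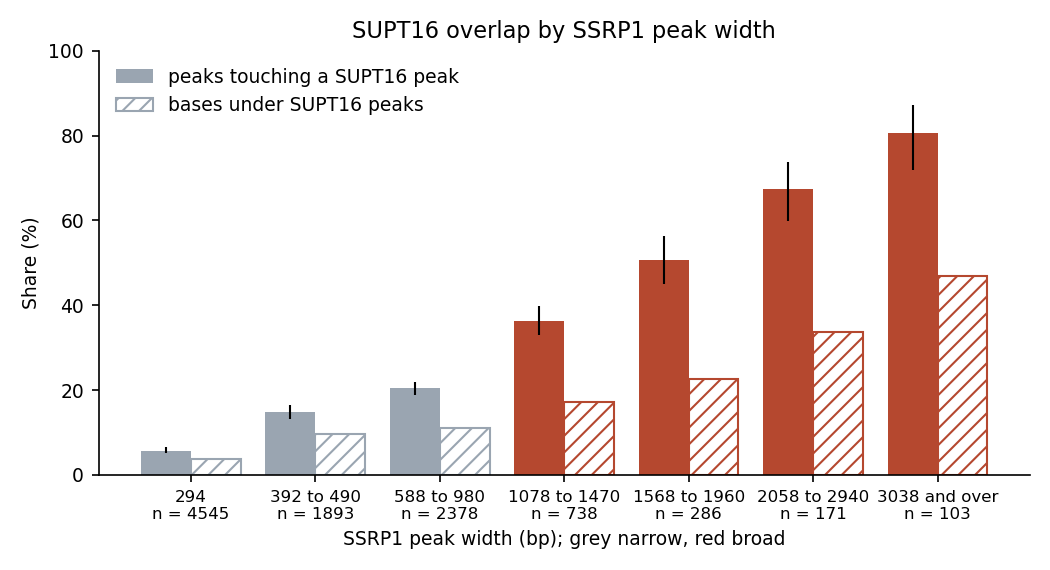
Share of SSRP1 peaks that touch a SUPT16 peak (filled bars, with 95% Wilson intervals) and share of their bases under SUPT16 peaks (hatched bars), both in percent, by SSRP1 peak width in bp. Narrow classes are grey and broad classes red, and the filled bars climb from 5.76% at 294 bp to 80.6% at 3038 bp or more.

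Among the overlapping broad peaks, SUPT16 lay under a median of 46.6% of the peak. In 270 broad peaks at least 50% of the bases were under SUPT16 peaks, and 133 broad peaks touched 2 or more SUPT16 peaks. Full coincidence was rare, with 3.0% of broad peaks covered over 90% or more of their bases. Seen from the other subunit, 782 of the 3855 SUPT16 peaks (20.3%) touched a broad SSRP1 peak, and 34.9% of all SUPT16 bases lay under one. The SUPT16 peaks that touched a broad SSRP1 peak had a median width of 630 bp, against 280 bp for the rest. Of the 292 SUPT16 peaks of at least 1000 bp, 221 (75.7%) touched a broad SSRP1 peak.

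The next question was where broad peaks lie relative to the transcription start sites (TSS) of RefSeq genes. Within 1000 bp of a TSS lay 821 broad peaks (63.3%, interval 60.6 to 65.8%) and 3653 narrow peaks (41.4%, interval 40.4 to 42.5%). Measured from the midpoint, which does not favour wide peaks, the shares were 56.7% and 39.7%. A TSS was inside 720 broad peaks (55.5%) and 1865 narrow peaks (21.2%). At the other end, 214 broad peaks (16.5%) and 2663 narrow peaks (30.2%) lay more than 10 kb from any TSS.

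SUPT16 was found more often on broad peaks that hold a start site. Of the 720 broad peaks with a TSS inside, 432 (60.0%, interval 56.4 to 63.5%) touched a SUPT16 peak, which covered 34.7% of their bases. Of the 477 broad peaks more than 1000 bp from a TSS, 135 (28.3%, interval 24.4 to 32.5%) touched one, and 16.5% of their bases were covered. Narrow peaks had lower shares in both positions, 26.3% with a TSS inside and 5.13% away from one.

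Broad peaks reached further into the gene than upstream of it. Over the 407 broad peaks that hold the start of exactly 1 protein-coding gene, the median reach was 539 bp upstream and 931 bp downstream, and 282 peaks (69.3%) were longer on the downstream side. The 944 narrow peaks of this kind had the same asymmetry at a smaller scale, with medians of 176.5 bp and 322 bp and 67.8% longer downstream. The genes under broad peaks were shorter, with a median length of 12176 bp against 20802 bp. At 2058 bp or more, the 80 genes concerned had a median length of 5939 bp, and the peak covered a median of 31.5% of the gene. Broad peaks spanned the whole gene in 30 cases and narrow peaks in 1.

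**Figure D2:**
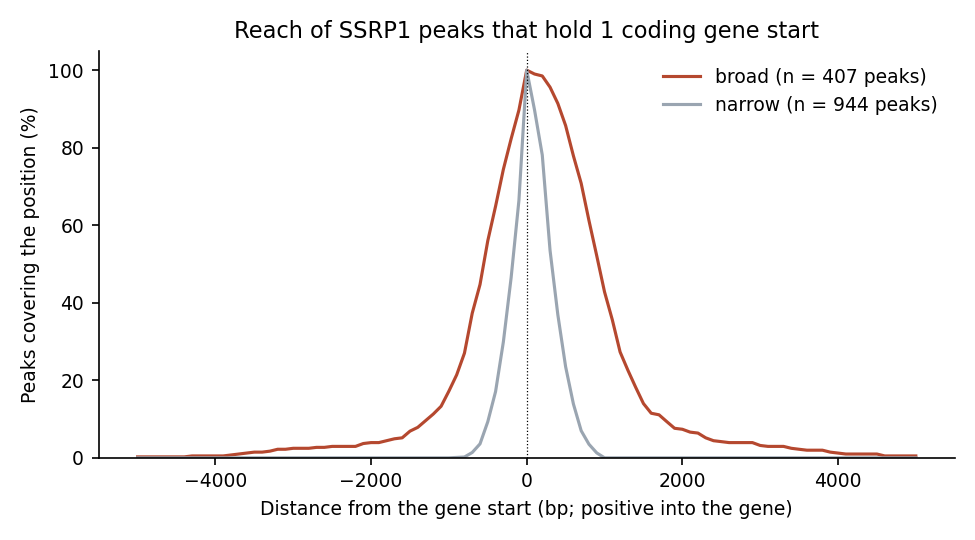
Percent of SSRP1 peaks covering each position, by distance in bp from the start of the single coding gene they hold (positive into the gene), for the peak classes named in the key with their number of peaks. The curves of broad peaks (n = 407) extend further to the right of the start than to the left, as do those of narrow peaks (n = 944) over a shorter distance.

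Broad peaks were unevenly spread over the chromosomes. Chromosome 8 held 279 of them (21.5%), or 2.16 per Mb, and the next were chromosome 11 with 0.909, chromosome 17 with 0.811 and chromosome 4 with 0.703 per Mb. On chromosome 8, 24.2% of all SSRP1 peaks were broad. Its narrow peaks (6.74 per Mb) and SUPT16 peaks (3.27 per Mb) were also dense, though close to the 5.85 and 3.15 per Mb of chromosome 11. Chromosome X held 7 broad peaks, or 0.0409 per Mb. It was also poor in narrow peaks (0.468 per Mb) and SUPT16 peaks (0.158 per Mb), and 8.05% of its SSRP1 peaks were broad. Chromosome Y held 14, all listed under *Erdr1*, a gene at the pseudoautosomal end.

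Of the broad peaks of chromosome 8, 48.0% touched SUPT16 and 68.8% were near a TSS. Without chromosomes 8 and Y, the 1005 remaining broad peaks gave 46.1% and 62.2%. The 817 tested genes of chromosome 8 had a median control level of 3.33 on the log2 scale per kb of exon, against 3.08 for genes elsewhere. The copy number of chromosome 8 in these cells was not stated in the paper or the labels, and its part in the count of broad peaks was not tested.

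**Figure D3:**
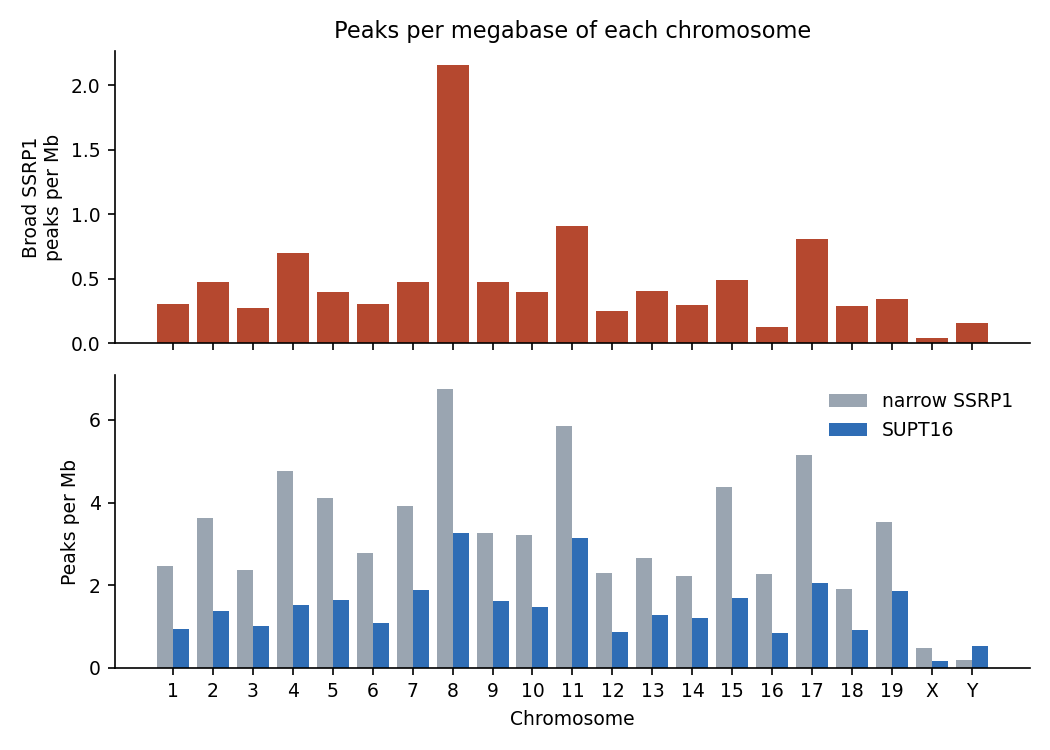
Broad SSRP1 peaks per Mb of each chromosome (upper panel) and narrow SSRP1 and SUPT16 peaks per Mb (lower panel). Chromosome 8 stands highest in the upper panel with 2.16 broad peaks per Mb, against 0.909 on chromosome 11.

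Some classes of RefSeq genes were covered far more often than others. Of all 49597 annotated genes, 1337 (2.7%) overlapped a broad peak and 5035 (10.2%) only narrow ones. Of 21706 protein-coding genes, 910 (4.19%) overlapped a broad peak. The share was 63.5% for 5S ribosomal RNA genes, 57.4% for replication-dependent histone genes, 9.68% for tRNA genes and 5.19% for small nucleolar RNA (snoRNA) genes. It was 1.35% for long non-coding RNA genes and 1.5% for small nuclear RNA genes. The first 4 of these classes are short genes that lie in arrays or inside introns of other genes, and reads from near-identical copies of 5S, tRNA and histone genes could not be placed with certainty.

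The replication-dependent histone genes encode the core and linker histones made in S phase. Of 68 annotated, 39 overlapped a broad peak, 33 of them along their whole length, and 6 overlapped only narrow peaks. They lay under 24 broad peaks with a median width of 1862 bp. SUPT16 touched 23 of these 24 peaks (95.8%), against 49.4% of the 909 broad peaks over protein-coding genes. The peak at chr13:22040103-22044610 held *Hist1h4i*, *Hist1h2ag* and *Hist1h2bj* at once, and the peak of 4116 bp at chr13:21714841-21718956 held *Hist1h3h*, *Hist1h2bl* and *Hist1h2ai*. The latter was under SUPT16 over 3906 bp.

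The 5S genes are transcribed by RNA polymerase III in the nucleus. Counted from chr8:123538784 to chr8:123599979, 33 of them stand in an array with a median spacing of 1701 bp. Of these 33, 25 lay under broad peaks and 18 under SUPT16 peaks. Broad peaks covered 33 5S genes on chromosome 8 in all, so that others lay outside the counted stretch. Because peaks are listed under the nearest gene, 21 broad peaks of this array are listed under *Gas8*, a dynein regulator gene, which makes it the gene with the most broad peaks. They are 1078 to 2842 bp wide (median 1274 bp), 20 of them hold a 5S gene and 16 touch SUPT16. The next array genes are listed under *Rhou*, which has 7 broad peaks.

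Small nucleolar RNAs guide the modification of ribosomal RNA and are mostly cut from introns of host genes. The 69 snoRNA genes under broad peaks lay in 34 peaks with a median width of 2254 bp, of which 32 (94.1%) touched SUPT16. Examples are the peak of 4900 bp over *Snhg1* and *Snord22* (chr19:8723373-8728272) and the peak of 4312 bp over *Gas5* (chr1:161034287-161038598). SUPT16 lay under 3458 and 1680 bp of them. For 23 broad peaks over tRNA genes the SUPT16 share was 65.2%, and for 20 over miRNA genes it was 65.0%. The 229 broad peaks that overlapped no RefSeq gene had the lowest share, 27.1%.

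The 10 widest broad peaks were of several kinds. The widest, of 21658 bp at chrY:90752411-90774068, and 4 more of 19012, 11564, 9702 and 8232 bp lay on chromosome Y and are listed under *Erdr1*. SUPT16 lay under 18648 bp of the widest. *Erdr1* lies in a region repeated between the sex chromosomes, where placement of reads is uncertain. Next came the non-coding RNA gene *Lncenc1* (listed as *Gm5086*) with 18032 bp at chr13:97482659-97500690, where SUPT16 covered only 630 bp. The nuclear RNA gene *Malat1* had a peak of 9898 bp at chr19:5793369-5803266 that covered the gene whole, with 5880 bp under SUPT16. *Eef1a1* was under SUPT16 over 7980 of 9506 bp, the longest such overlap outside chromosome Y.

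The distal *Zfp42* peak, by contrast, touched no SUPT16 peak over its 8036 bp and lay 5589 bp from the nearest TSS. It was 1 of 4 broad peaks of this gene, of which the 1 of 1666 bp at chr8:43299047-43300712 held a TSS and met SUPT16 over 252 bp. The peak of 1372 bp at chr8:43306593-43307964 also held a TSS and touched no SUPT16 peak. Of the 1203 genes, 195 had 2 or more broad peaks and 53 had 3 or more. Among them were the pluripotency factor genes *Esrrb* and *Sall1* and the cell cycle transcription factor gene *Mybl2* with 6 each, the autophagy gene *Atg7* with 8, and *Cacna1a*, a calcium channel gene, with 6. The widest peaks of *Esrrb* (2940 bp, 27860 bp from a TSS), *Sall1* (5096 bp, over a TSS), *Mybl2* (6272 bp) and *Cacna1a* (2352 bp) touched no SUPT16 peak.

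Broad peaks were richer in G+C and in CpG than the sequence beside them. The median G+C content was 55.5%, against 47.1% in flanking sequence of the same width, 54.4% in narrow peaks and 61.0% in SUPT16 peaks. The ratio of observed to expected CpG was 0.546, against 0.25 in flanks and 0.405 in narrow peaks, and it was above 0.6 in 559 broad peaks (43.1%). Where a TSS was inside, the ratio was lower in broad peaks (0.692) than in narrow ones (0.816). Away from a TSS it was 0.25 and 0.264. Repeat-masked bases made up 19.1% of broad peaks and 29.5% of flanks.

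Short motifs were counted on both strands in the central 300 bases of each peak. GGGCGG was in 36.5% of broad peaks, 30.6% of narrow peaks and 8.47% of flanks. For CCGGAAG the shares were 7.09%, 6.06% and 1.69%. For CCAAT they were 28.7%, 28.5% and 33.4%, and for TATAAA 8.71%, 7.6% and 16%. Among the broad peaks away from a TSS, TCAAGGTCA was in 2.31% (11 peaks) and the AP-1 motif TGACTCA in 7.55%. Narrow peaks away from a TSS had 1.49% and 5.11%, and the flanks of all broad peaks 0.693% and 4.39%.

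The promoters printed above can be read against these shares. In RefSeq promoter sequences of 300 bases, GGGCGG was in 73.4% of the 721 under broad peaks, 72.1% of the 1500 under narrow peaks and 35.7% of all 32851. CCGGAAG was in 20.2%, 20.8% and 8.86%. CCAAT was in 35.2%, 33.7% and 37.4%, and TATAAA in 9.29%, 5.73% and 13.6%. The 35 histone promoters under broad peaks were apart from the rest, with CCAAT in 82.9% and TATAAA in 71.4%. The 64 histone promoters of the whole annotation had 81.2% and 53.1%. Among the 22 ribosomal protein promoters under broad peaks, TATAAA was in 1 (4.55%), that of *Rps2*. For TATAAA the printed examples are thus not typical of their classes, as the printed *H2ac11* promoter has no match to it.

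Expression was then examined for the genes listed under broad peaks. Of the 1203 genes, 1125 (93.5%) had a value among the 15384 genes of the RNA-seq table, and the 78 others included 37 protein-coding genes. In bulk RNA, fewer cells of a type and less RNA per cell cannot be told apart. The control level is the mean of log2(library-size value per kb of exon + 0.5) over the 4 control libraries. Its median was 4.21 for genes with a broad peak (4.16 to 4.23 over libraries), 3.36 for the 4417 genes with narrow peaks only (3.36 to 3.40) and 2.87 for the 9842 genes with no SSRP1 peak (2.86 to 2.91). Of the genes with a broad peak, 48.6% were among the top 25% of all genes by control level and 10.8% among the bottom 25%.

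The level rose with the width of the gene's widest peak. The median was 3.93 for 563 genes at 1078 to 1470 bp, 4.06 for 269 genes at 1568 to 1960 bp, 4.78 for 163 genes at 2058 to 2940 bp and 5.10 for 130 genes at 3038 bp or more. Genes with 2 or more broad peaks had 5.04. Genes with a broad peak over their own TSS had 4.47 and those with it elsewhere 3.68. Genes that were also listed for SUPT16 had 4.67 and those that were not 3.51. These classes overlap, and a nearest-gene list can name a gene that the peak does not touch.

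The median level had the same order in RNA bound to chromatin. The median log2(CPM per kb + 0.5) was 0.81 and 1.43 in the 2 libraries for 1202 genes with a broad peak, 0.05 and 0.50 for 5289 genes with narrow peaks only, and -1.0 and -0.83 for 20688 genes with none. Genes with a broad peak took 25.6% and 24.5% of all counts, genes with narrow peaks only 6.89% and 8.37%, and genes with none 67.5% and 67.2%, from totals of 3441643 and 3393923. Of them, 5.07% had no count in either library, against 42.6% of genes with no peak.

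Among genes with a broad peak, more rose and fewer fell in KD than among all genes. With the threshold of a log2 fold change beyond 1 in either direction and limma's adjusted p under 0.01, 194 of the 1125 genes (17.2%) rose, against 8.07% of all 15384 genes. In the other direction 91 (8.09%) fell, against 20.6% of all genes. KD and control libraries did not overlap, with KD above, in 600 of these genes (53.3%, against 35.8% of all genes), and with KD below in 260 (23.1%, against 37.5%). The median log2 fold change was 0.32 (0.30 to 0.33 over the KD libraries), against -0.04 for all genes, 0.07 for genes with narrow peaks only and -0.14 for genes with no peak.

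The excess of rises depended on the scaling and on a pair of gene groups. Library-size values did not share a total, with sums of 825584 to 909417 per control library and 1137293 to 1182584 per KD library. The part of this difference in the calls was not tested. With TMM factors on these values, 16.9% of the genes with a broad peak rose against 7.76% of all genes, and 8.27% fell against 20.8%. With quantile normalisation, 9.96% of these genes rose against 9.54% of all genes, and 5.51% fell against 10.6%. With spike-in values, 66.8% rose against 48.1% of all genes, and 2.22% fell against 7.03%, and the median log2 fold change of all genes was 0.95. Without ribosomal protein and histone genes, 128 of 1038 genes rose (12.3%, against 7.41% of all genes). The groups were left out after their values were seen.

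The share that rose also went with the width of the peak. It was 11% of the genes at 1078 to 1470 bp, 19.7% at 1568 to 1960 bp, 27.0% at 2058 to 2940 bp and 26.9% at 3038 bp or more. The median log2 fold changes were 0.20, 0.31, 0.42 and 0.59. The share that fell was 7.82%, 10.0%, 7.98% and 5.38%. Genes with a broad peak on chromosome 8 rose less often than those elsewhere, with 24 of 203 called higher (11.8%) and 28 lower (13.8%). On chromosomes other than 8 and Y, 170 (18.5%) of 921 were called higher and 63 (6.84%) lower. Among all 817 tested genes of chromosome 8, 8.32% were called higher and 21.2% lower.

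Since the level of a gene and its change in KD went together, the calls were also split by 4 equal classes of control level. In the top class, 26.0% of 547 genes with a broad peak rose, 15.3% of genes with narrow peaks only and 16.9% of genes with no peak. In that class without ribosomal protein and histone genes, the shares were 16.7%, 14.1% and 15.9%. In the class below, 13.3% of 248 genes with a broad peak rose, against 7.7% and 7.09%. Falls differed in the bottom class, where 29.5% of 122 genes with a broad peak fell, against 48.2% and 52.1%. In the class above it 18.8% of 208 fell, against 18.4% and 23.0%, then 3.23% against 4.48% and 8.43%, and in the top class 1.46% against 1.7% and 4.95%.

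**Figure D4:**
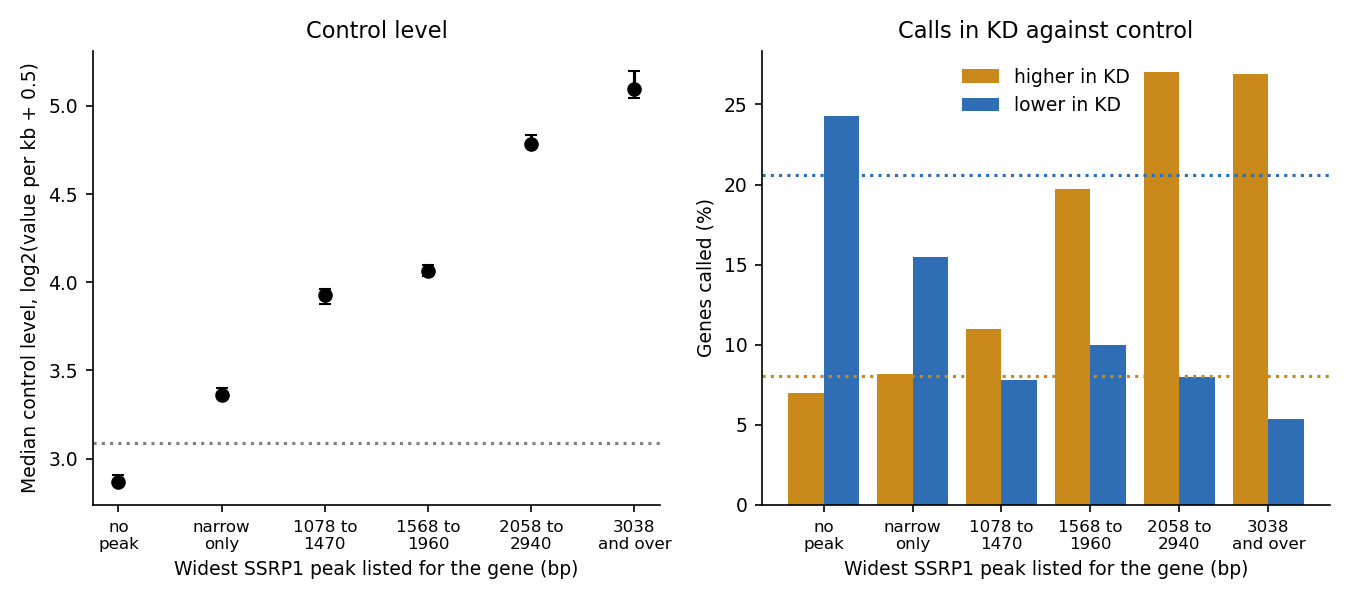
Left, median control level (log2 of library-size value per kb + 0.5) of genes by the class of their widest SSRP1 peak in bp, with bars from the lowest to the highest control library. Right, percent of those genes called higher or lower in KD; dotted lines give all 15384 genes, and the share called higher goes from 11% at 1078 to 1470 bp to 26.9% at 3038 bp or more.

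Lists of genes were set beside a background in which 4.42% of 27189 gene identifiers had a broad peak. Histone and ribosomal protein genes had the highest shares. Of 69 replication-dependent histone genes in the list, 38 (55.1%) had a broad peak, and 34 of the 37 with a value rose while none fell, with a median log2 fold change of 1.46. Of the 31 histone genes with a value and no broad peak, 27 rose, with a median of 1.41. *Hist1h4f*, under a peak of 1176 bp, had values of 107, 93.1, 70.1 and 102 in control and 466, 422, 491 and 416 in KD, with no overlap and a log2 fold change of 2.28 (SE 0.087, adjusted p = 2.49e-18 in limma). *Hist1h2ai* went from 870 ± 74.4 to 1860 ± 104 (SD, n = 4 libraries each), a log2 fold change of 1.10, and was among the 5 genes with the highest control level per kb. Reads of such copies are shared, so single histone values are uncertain.

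Ribosomal protein genes encode the proteins of the cytosolic ribosome. Of 87 in the list, 50 (57.5%) had a broad peak, and 32 of these rose and none fell, with a median log2 fold change of 1.10. Of the 36 others with a value, 20 rose and 1 fell. *Rps14*, with a peak of 1764 bp, had 1270, 1030, 1020 and 1130 in control and 2560, 2610, 2750 and 2190 in KD, with no overlap and a log2 fold change of 1.19 (SE 0.08). *Rplp1*, with a peak of 3920 bp, rose by 1.09. *Rps2* had a log2 fold change of 0.81 and *Rpl10a* of 0.80, both below the threshold for a call, and that of *Rps2* was -0.073 with quantile normalisation. By contrast, 2 of 74 mitochondrial ribosomal protein genes (2.7%) had a broad peak. Ribosomal protein genes have many processed pseudogenes that can share their reads.

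Of 27 pluripotency genes, most of them for transcription factors, 12 (44.4%) had a broad peak. Of these 5 rose (*Zfp42*, *Klf2*, *Nanog*, *Dppa5a* and *Tdgf1*, of which *Dppa5a* and *Tdgf1* do not encode transcription factors) and none fell, with a median log2 fold change of 0.82. *Zfp42* was at 248, 249, 238 and 223 in control and 549, 540, 569 and 520 in KD, clearly apart, with a log2 fold change of 1.18 (SE 0.055). *Klf2*, under a peak of 3136 bp at chr8:72318905-72322040 that met SUPT16 over 2590 bp, rose by 1.26, from 38.6 ± 5.22 to 92.6 ± 7.34. *Nanog*, with a peak of 2352 bp and no SUPT16, rose by 1.05. *Esrrb* at 0.83 and *Sall1* at 0.55 did not reach the threshold. Of the 15 other genes of the list, 6 rose.

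Nodal signalling, a TGF-beta pathway that is active in ES cells, had 3 of 15 genes with a broad peak. Of these 2 rose and none fell, and of the 11 others with a value 2 rose and 1 fell. *Lefty2*, an inhibitor of Nodal, had the largest rise of all called genes with a broad peak. It went from 9.26, 12.0, 9.15 and 7.66 in control to 102, 102, 94.9 and 92.5 in KD, a log2 fold change of 3.31 (SE 0.10, adjusted p = 2.94e-20 in limma). *Tdgf1*, which encodes the Nodal co-receptor Cripto, went from 142, 165, 148 and 139 to 806, 800, 813 and 720, a log2 fold change of 2.4. Its peak of 2940 bp at chr9:110944135-110947074 lies beside that of *Lrrc2* (2450 bp, chr9:110951877-110954326), which rose by 2.41. *Acvr2b*, a receptor gene, had 0.55. None of the widest peaks of these 4 genes touched SUPT16. In the FGF and ERK list, 5 of 19 genes had a broad peak, and 2 of these rose and none fell. Of the 13 others with a value, none rose and 2 fell. The ligand gene *Fgf4* rose by 1.53, from 73.0 ± 6.60 to 211 ± 4.65, and *Etv4*, an ETS factor gene named after its value was seen, by 1.27. The feedback inhibitor genes *Spry4* (0.54), *Dusp6* (0.01) and *Spred2* (-0.52) were not called.

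Immediate early genes are those switched on within minutes of a stimulus. Of 29, 7 (24.1%) had a broad peak, 2 of which rose and 1 fell. Of the 18 others with a value, 2 rose and 3 fell. *Egr1* (peak of 5684 bp) had 5.17, 8.78, 7.71 and 4.24 in control and 19.9, 16.2, 16.3 and 17 in KD, a log2 fold change of 1.40 (SE 0.168). *Ier2*, under a peak of 7252 bp at chr8:84658967-84666218, rose by 1.31. *Junb* had 0.94 and *Mcl1* 0.36. *Atf3*, a stress-induced repressor gene, was the member that fell, from 49.7, 44.4, 31.2 and 43.8 to 4.45, 7.62, 6.35 and 7.19, a log2 fold change of -2.64. Its peak of 1764 bp touched no SUPT16 peak.

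The 3 glycolysis genes of 25 with a broad peak included *Gapdh* and *Pkm*, which both rose. *Gapdh*, with a peak of 6076 bp at chr6:125160211-125166286, went from 502 ± 11.7 to 1090 ± 27.0, a log2 fold change of 1.12. *Pkm*, the pyruvate kinase gene, rose by 1.30. In the list as a whole 18 of 25 rose. Of 22 p53 targets, 4 had a broad peak, and these had values on both sides of 0, none of them called. *Bax* was at 0.79, *Ccng1* at 0.57, *Sesn2* at -0.42 and *Phlda3* at -0.70. The peak listed for *Bax* overlaps the neighbouring genes *Gys1* and *Ftl1* and not *Bax* itself. Of the 18 other p53 targets with a value, 6 fell and none rose. All 4 chaperone genes of 25 with a broad peak were also not called, with *Hspa8* at 0.76 and *Hsp90aa1* at 0.77, whereas 9 of the 21 others rose.

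The remaining lists lay on both sides of the background of 4.42%. None of 39 Hox genes and none of 20 neural genes had a broad peak. Of 337 zinc finger genes with a Zfp symbol, 29 (8.61%) had a broad peak. Of these 1 rose and 3 fell, with a median log2 fold change of -0.13. Of the 285 others with a value, 8 rose and 42 fell. Of 24 genes of FACT and elongation partners, 3 had one, and *Supt5* had 0.46, *Hexim1* 0.17 and *Ell* -0.68. Of 17 BMP and Id genes 1 had one, *Smad7* with a peak of 3724 bp and a log2 fold change of 0.51. Of 139 genes with a snoRNA or snRNA symbol, 21 (15.1%) had one, and 6 of the 15 with a value rose. Of the 48 others with a value, 19 rose. Of 645 miRNA genes 19 (2.95%) had one. Of 19 abundant non-coding RNA genes 5 (26.3%) had one, with *Malat1* at -0.26, *Snhg1* at 0.19 and *Gas5* at 0.38.

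The genes under the widest peaks differed in their changes. *Eef1a1*, the gene with the highest control level per kb, had values of 7450, 6590, 6440 and 6940 in control and 9510, 9630, 10400 and 9210 in KD. Its log2 fold change of 0.50 (SE 0.105) was below the threshold. *Mto1*, which shares the peak of *Eef1a1*, had 0.58. *Malat1* had 3400, 2550, 2480 and 2990 in control and 2370, 2170, 2410 and 2510 in KD, where the groups overlapped. *Erdr1* had 201 ± 10.9 and 193 ± 18.6, a log2 fold change of -0.06. *Slc5a5*, the iodide transporter gene, fell from 17, 17, 18.8 and 16.3 to 3.83, 4.22, 3.24 and 4.17, a log2 fold change of -2.03.

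The genes with many broad peaks were also mixed. *Mybl2* rose by 1.20, from 183 ± 10.4 to 419 ± 20.8. *Gm13152*, with 8 broad peaks in a cluster of zinc finger genes on chromosome 4, had 0.70. *Cacna1a* had -0.39, *Atg7* -0.53 and *Gm3500* -0.56. *Gas8* had a mean of 18 in both groups, and its log2 fold change of 0.02 changed sign when single libraries were left out. *Rhou* had -0.20.

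The remaining large changes were as follows. *Platr10*, a non-coding RNA gene of ES cells under a peak of 1078 bp, rose by 2.36, and *Syce2*, a gene of the synaptonemal complex, by 2.31. *Dppa5a*, an RNA-binding protein gene of ES cells with a peak of 1274 bp, went from 570 ± 34.3 to 2050 ± 149, a log2 fold change of 1.84. *Ctsa*, a lysosomal protease gene, rose by 1.15. *Gm21119* went from 74.1, 103, 131 and 102 in control to 0.124, 0.352, 0.259 and 2.2 in KD, a log2 fold change of -6.63 (SE 0.273). It is part of a repeated region of chromosome 8, and its widest peak lies 107814 bp from the nearest TSS, so that the pairing of peak and value is uncertain.

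The other large falls were as follows. *Grk4*, a receptor kinase gene, fell by 2.89 on the log2 scale, from 10.1 ± 0.85 to 0.951 ± 0.237, and shares its peak of 1274 bp with *Nop14*. *March1*, a ubiquitin ligase gene, fell by 2.63, *Qrich2* by 2.49 and *4933438K21Rik* by 2.45. Their widest peaks lay 42378, 4999 and 25939 bp from the nearest TSS and touched no SUPT16 peak. Of the 6 largest falls, 2 had a SUPT16 overlap (*Gm21119* and *Grk4*).

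**Figure D5:**
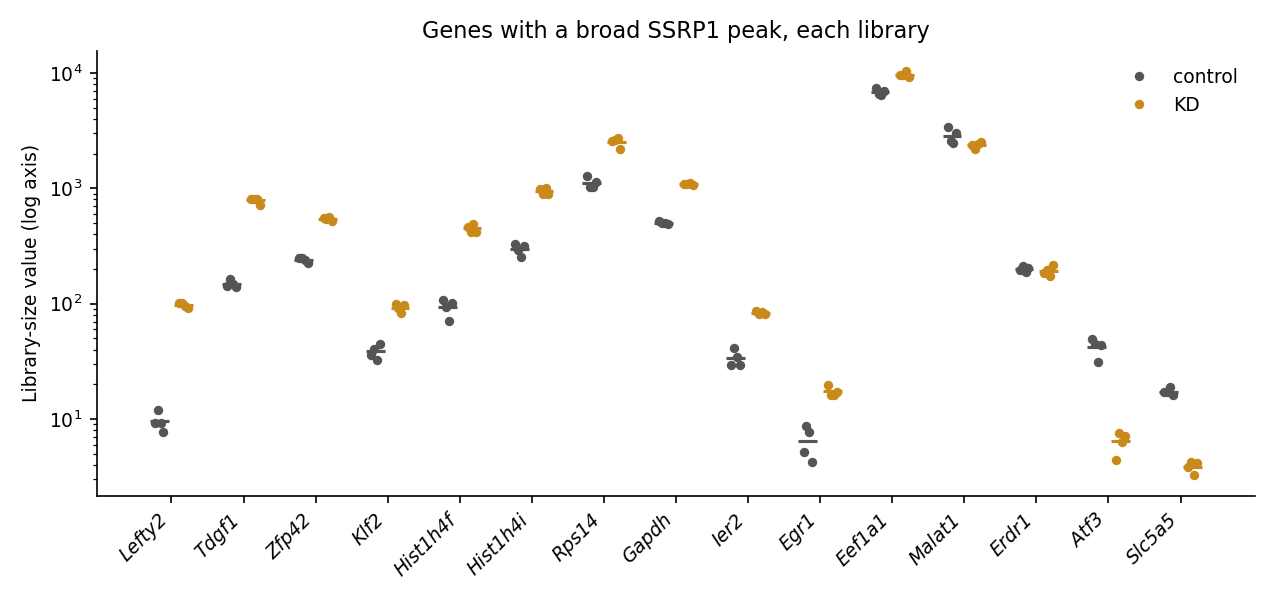
Library-size value (log axis) of named genes with a broad SSRP1 peak, with 1 point per library for control and KD and a line at the mean of 4. *Lefty2* lies between 7.66 and 12.0 in control and between 92.5 and 102 in KD, and *Atf3* lies between 31.2 and 49.7 in control and between 4.45 and 7.62 in KD.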

How the data were processed

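The data of mouse E14 ES cells comprised ChIP-seq peak lists (SSRP1 and SUPT16, 2 pooled replicates each), RNA-seq of 4 control and 4 KD libraries, and chromatin RNA of 2 libraries. The authors aligned ChIP reads to mm10 with Bowtie2 2.2.6, found peaks with PePr, and assigned them to the nearest gene with ChIP-Enrich. The RNA-seq signal per gene was deposited after STAR, featureCounts and a filter above 1 CPM, scaled by the authors to library size and, separately, to spike-ins. The processing notes name STAR 2.5.1b among others. Each raw count of chromatin RNA was deposited as made with STAR and featureCounts. The authors' own tables of fold changes and p-values (KD against control, neural progenitors, exons) were not used.

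Rows of the peak list were reduced to unique regions. RefSeq annotation of GRCm38.p6 was intersected with them at an overlap of at least 1 bp. For 15384 genes, library-size values plus 0.5 were taken to log2, which understates the change of low genes, and fitted with limma 3.58.1 (trend) and Benjamini-Hochberg adjustment. Values were whole multiples of 1 read for 100% of values within 0.1, and edgeR 4.0.16 and DESeq2 1.42.0 were run on these reads as alternatives. R 4.3.3, Python 3.11.15, numpy 2.4.6, pandas 2.3.3, scipy 1.17.1, matplotlib 3.10.9 and samtools 1.23.1 were used. The limma, edgeR and DESeq2 steps were tested on simulated data with known changes.

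Named were the 10 widest peaks and their genes, the 5 longest SUPT16 overlaps, the 5 genes with the highest control level per kb, the called genes with the 6 highest and the 6 lowest log2 fold changes and no overlap between groups, up to 10 genes with 3 or more broad peaks, up to 4 examples per list (the widest peaks), genes named in the study, and cell type markers. The members, lists and rules were chosen with earlier results of these data known. MNase-seq, ATAC-seq, NET-seq and neural progenitor samples were not analysed here. Chi-square per degree of freedom between libraries of a group was 1.88 to 6.61, so that no library duplicated another. Some items of the naming rule are not reported here.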

Additional observations from a re-analysis of the deposited data

Results flagged for a closer look

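The values of the named genes were examined in each group of 4 libraries for a library far from the other 3, in 154 groups, of which chance alone gives about 1 in 20. In 5 groups the gap between an extreme library and its neighbour, divided by the range, was above the critical value of 0.829, and all 5 were KD groups. *Tdgf1* was at 720 in KD replicate 4, below 800 to 813 in the others (gap over range 0.86). *Rps2* was at 2060 in the same library, below 2240 to 2270 (0.857). *Gm21119* was at 2.2 in it, above 0.124 to 0.352 (0.89). *Smad7* was at 65.7 in KD replicate 3, below 72.5 to 73.0 (0.932). *Hspa8* was at 4130 in KD replicate 3, above 3820 to 3860 (0.871).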

How the results depend on the processing

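The share of broad peaks touching SUPT16 (47.1%) was 41.6%, 61.3% and 72.3% with width minimums of 800, 1500 and 2000 bp, 31.4% with SUPT16 peaks of 500 bp or more and 40.8% with SSRP1 peaks under 1000 bp apart joined. The share of bases under SUPT16 (27.8%) was 25.3%, 34.5% and 41.0% with those widths, 23.7% with SUPT16 peaks of 500 bp or more, 29.1% without chromosome 8 and 26.4% without chromosomes 8 and Y. The share within 1000 bp of a TSS (63.3%) was 55.5% with the TSS inside, 76.3% within 5000 bp, 56.7% from the midpoint and 53.2% with coding genes. The exclusions of chromosomes and of gene groups were chosen after seeing the data.

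The median control level (4.21) was 4.06, 4.52 and 4.89 with the 3 widths, 4.325 with a pseudocount of 2, 5.56 without length scaling and 3.72 with spike-in values, and 4.204 to 4.215 with single libraries left out. The 194 genes called higher became 751 with spike-in values, 112 with quantile normalisation, 100 with limma's treat at a fold change of 2 (8.89%, against 3.36% of all genes), 595 by adjusted p alone (52.9% against 35.4%), 79 at 2000 bp (27.0% of 293 genes) and 128 without ribosomal protein and histone genes. The 91 called lower became 25 with spike-in values, 42 with treat (3.73% against 10.3%), 262 by adjusted p alone (23.3% against 37.3%), and 137, 47 and 20 at 800, 1500 and 2000 bp (8.82%, 8.36% and 6.83% of the genes so selected). Without single libraries they were 185 to 204 and 83 to 100. The median log2 fold change (0.32) was 1.33 with spike-in values, 0.15 with quantile normalisation, 0.30 with a pseudocount of 2, 0.37 with mean values of 5 or more, 0.35 with DESeq2, 0.29 with the gene of largest overlap, 0.28, 0.42 and 0.53 with the 3 widths, 0.38 without chromosome 8, 0.26 without ribosomal protein and histone genes, and 0.315 to 0.333 without single libraries. All of these kept the direction. The causes of these shifts were not tested.

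Control and KD libraries share replicate numbers, and the correlations of same-numbered deviations were 0.0175, -0.0154, -0.057 and -0.0224, with no library closest to its own number, so the numbers did not pair them. With the replicate block, 194 genes rose, 91 fell and the median was 0.321.

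Of 1305 values for 77 named genes, 1211 kept direction and call, 40 gained a call, 21 lost it and 33 changed sign. With spike-in values the log2 fold changes were 0.48 for *Atg7*, 0.63 for *Cacna1a*, 0.34 for *Ell*, 0.96 for *Erdr1*, 0.445 for *Gm3500*, 0.76 for *Malat1*, 0.775 for *Mir1894*, 0.325 for *Phlda3*, 0.80 for *Rhou*, 0.605 for *Sesn2*, 0.475 for *Spred2* and 0.58 for *Zfp369*. With quantile normalisation they were -0.17 for *Ccng1*, -0.24 for *Dusp6*, -0.13 for *Eef1a1*, -0.12 for *Hexim1*, -0.25 for *Hsp90ab1*, -0.23 for *Hspb1*, -0.29 for *Mcl1*, 1.00 for *Mir1894*, -0.073 for *Rps2*, -0.50 for *Slc2a3*, -0.14 for *Snhg1* and -0.066 for *Supt5*. *Dusp6* was at -0.008 with TMM factors. Without single libraries, *Dusp6* ranged from -0.014 to 0.034, *Gas8* from -0.078 to 0.124 and *Mir1894* from -0.342 to 0.126. Depth limits low genes more in control, where libraries hold 4602278 to 6680919 reads.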
